A study of Mus musculus with 14 samples.

Results

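Reprogramming of fibroblasts was examined here by comparing the methylated regions of 4 Aid+/+ iPS clones (967B2, 967B4, 979B1 and 979B3) with those of 3 Aid+/+ MEF cultures (MEF#1, MEF#2 and MEF#3). These are 7 of the 14 samples of the series, and they were chosen by genotype and cell type as the labels give them. Each sample gave a list of peaks, with 33500 to 106408 peaks on the 19 autosomes, and 28090 promoter windows of 21410 autosomal protein-coding genes were searched for them. All 7 samples were Aid+/+ and male, carried the Nanog-GFP reporter and had a mixed background of C57BL6, DBA and 129S4. The iPS cells were at passage 6, had been moved from feeder cells to gelatin, and were kept with LIF and puromycin, whereas the MEFs were at passage 3. The iPS clones had received cDNAs of Oct3/4 (gene Pou5f1), Sox2 and Klf4, and in part of the study's experiments of c-Myc, from retroviruses, and the labels do not say whether the parent cells of a clone were those of MEF#1 to MEF#3. Each iPS sample was a clone from experiment 967 or 979, with 2 clones from each, and each MEF culture came from a separate embryo without head and gut, so that it can hold several cell types. The question was which promoters, genes and other parts of the genome hold a peak in the reprogrammed cells and not in fibroblasts, or the reverse.

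DNA methylation in mammals is placed mostly on cytosines that are followed by guanine (CpG). Promoters rich in CpG are generally kept free of methylation in most cells, apart from imprinted genes, X-linked genes and genes used in germ cells, whereas promoters poor in CpG are often methylated in cells that do not use them. Reprogramming to pluripotency is known for demethylation at pluripotency genes and for de novo methylation elsewhere. In MBD-seq a methyl-CpG binding domain captures methylated fragments, and a peak is a place where sequence tags pile up above the local background. A peak therefore needs both methylation and enough CpGs. In such mixtures of cells, fewer cells with a methylated region and less methylation per cell cannot be told apart.

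Before duplicates were filtered, the iPS libraries held 28.4, 36.4, 36.9 and 35.7 M tags, and the MEF libraries 27.6, 30.1 and 27.8 M. After filtering, 15.9, 11.6, 12.8 and 9.63 M were left in the iPS clones and 19.6, 17.5 and 18.2 M in MEFs. The rate of redundant tags was 0.44, 0.68, 0.65 and 0.73 in the iPS clones and 0.29, 0.42 and 0.35 in MEFs. The share of filtered tags that lay in autosomal peaks was 47.2 to 59.6% in the iPS clones and 18.05 to 25.8% in MEFs, with no overlap. The iPS clones also had more autosomal peaks (74815, 83991, 95815 and 106408) than MEFs (45572, 54953 and 33500). Run names and MACS versions in the file headers put 967B2 in a different processing run from the other 3 iPS clones, and MEF#1 in a different run from MEF#2 and MEF#3. No stated run prefix was common to both cell types, so that processing and cell type cannot be told apart. At most 0.00597% of the peaks of a pair of samples within a cell type had identical ends, over 9 pairs. No peak list was thus a copy of another from the same cell type. Separate libraries of the same DNA could also differ in peak ends, so that this check cannot show that samples are independent. Each sample was counted as a separate replicate, although some iPS clones came from the same experiment. The effect of a shared experiment was not tested.

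Peaks of both cell types were found mostly outside promoters. A summit, the highest point of a peak, was placed at a promoter if it lay from 1000 bp before to 500 bp after the start of a protein-coding transcript, and otherwise in an exon, in an intron or between genes. On average, 31.1% ± 1.72 (SD, n = 4) of iPS peaks were in introns, against 26.6% ± 1.32 (SD, n = 3) of MEF peaks. All 4 iPS clones (28.9 to 32.9%) lay above all 3 MEF cultures, and the exact two-sided permutation p of 0.0571 (BH-adjusted 0.143 over 5 shares) did not pass 0.05. With the same number of peaks in every sample the difference fell from 4.54 to 1.04 percentage points (exact permutation p = 0.2). Between genes lay 47.6% ± 0.561 (SD, n = 4) of iPS peaks and 49.7% ± 1.47 (SD, n = 3) of MEF peaks (exact permutation p = 0.0571, BH-adjusted 0.143). With the same number of peaks in every sample this difference took the opposite sign, 1.80 percentage points higher in iPS cells (exact permutation p = 0.0286, the smallest that 4 samples against 3 allow).

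Exons held 18.6% ± 1.02 (SD, n = 4) of iPS peaks and 20.3% ± 0.654 (SD, n = 3) of MEF peaks (exact permutation p = 0.0857, BH-adjusted 0.143). Exons make up 2.30% of autosomal bases, so that peaks of both cell types were dense in them. Promoters make up 1.81% of these bases. They held 3.50% of the peaks in 967B2 and 2.33, 2.35 and 2.38% in the other iPS clones, against 3.39, 3.16 and 3.59% in MEFs. The clone 967B2 thus lay among the MEFs, and the difference of -0.74 percentage points did not pass the test (exact permutation p = 0.114, BH-adjusted 0.143). With the same number of peaks in every sample it was -1.10 percentage points (exact permutation p = 0.0286). The promoter bin with the most summits in every sample was the first 250 bp after the transcript start. It held 1.31 to 1.62% of the peaks of MEFs and 0.900 to 0.937% of those of 3 iPS clones, while 967B2 lay within the range of MEFs.

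**Figure D1:**
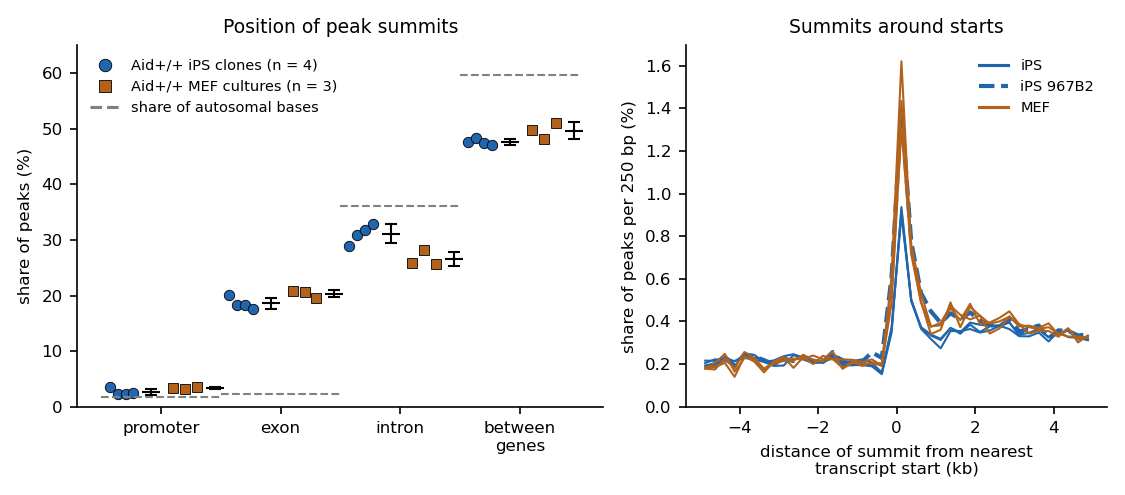
Left, share of autosomal peak summits (%) at promoters, in exons, in introns and between genes. Points are samples, bars are mean and SD, and dashed lines give the share of autosomal bases in each class. Right, share of peaks (%) per 250 bp by distance of the summit from the nearest protein-coding transcript start (kb). Clone 967B2 (dashed) follows the MEF cultures at the start, and the other 3 iPS clones lie below them.

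A gained promoter was defined as a window with a peak of all 4 iPS clones and of no MEF culture, and a lost promoter as the reverse. The names describe presence and absence of peaks and not a time course. Of the 28090 promoters, 428 (1.52%) were gained and 195 (0.694%) were lost, in 420 and 192 genes, and 760 (2.71%) had a peak in all 7 samples. More gained promoters were poor in CpG than rich in it, and more lost promoters were rich in CpG than poor in it. Of the gained promoters, 231 were CpG-poor, 167 intermediate and 30 CpG-rich. Of the lost promoters, 15 were CpG-poor, 67 intermediate and 113 CpG-rich. CpG-rich windows contain a 500 bp stretch with more than 55% GC and a ratio of observed to expected CpG above 0.75, and CpG-poor windows have no stretch with a ratio above 0.48. The median gained promoter held 1.67 CpGs per 100 bp, the median lost promoter 4.13 and the median of all promoters 2.33.

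These numbers depend on how many peaks each sample contributes. When every sample was limited to its 33500 most significant peaks, 88 promoters were gained and 397 lost, so that losses became more frequent than gains. Of these, 48.9% of the gained and 12.1% of the lost promoters were CpG-poor, and 5.68% of the gained and 42.1% of the lost were CpG-rich. In number, 43 CpG-poor promoters were then gained and 48 lost. The choice of iPS clone mattered more for CpG-rich promoters. Clone 967B2 had peaks at 991 of the 11120 CpG-rich promoters, the other iPS clones at 263, 353 and 386, and the MEFs at 506, 514 and 506. When 967B2 alone represented the iPS cells, 624 CpG-rich promoters were gained and 123 lost, the opposite balance to that with all 4 clones. Peaks with over 65% GC made up 1.26% of its peaks, 0.120 to 0.156% in the other 3 clones and 0.353 to 0.642% in MEFs. The part of library composition in the count of CpG-rich promoters was not tested.

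At the CpG-poor and intermediate promoters the counts of the iPS clones lay closer together than at the CpG-rich ones. CpG-poor promoters with a peak numbered 878, 1031, 1133 and 1383 in the iPS clones and 455, 620 and 327 in MEFs, and the groups did not overlap. Intermediate promoters with a peak numbered 1400, 1253, 1402 and 1577 in the iPS clones and 1046, 1193 and 801 in MEFs, again without overlap. Per 100 peaks of the library, the order of CpG-poor promoters was the same (1.17 to 1.30 in iPS cells and 0.976 to 1.13 in MEFs). That of intermediate promoters was the reverse (1.46 to 1.87 in iPS cells and 2.17 to 2.39 in MEFs). Clone 967B2 had the 1.87, and 967B4, 979B1 and 979B3 had 1.49, 1.46 and 1.48.

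**Figure D2:**
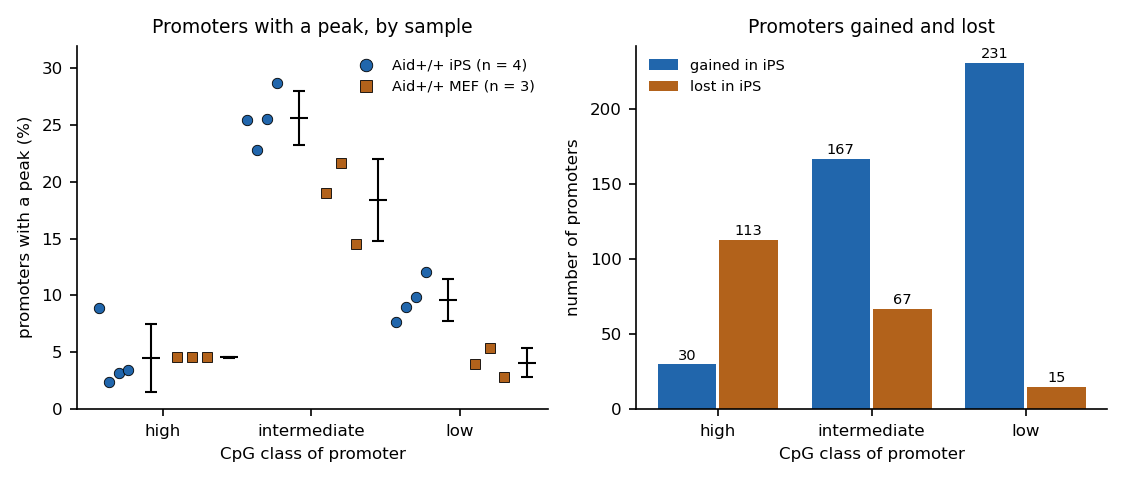
Left, percentage of promoters with a peak in each sample, by CpG class of the promoter; points are samples and bars are mean and SD. Right, number of promoters gained and lost in Aid+/+ iPS cells in each class. Among CpG-poor promoters 231 were gained and 15 lost, among CpG-rich ones 30 and 113, and the iPS point at 8.91% in the CpG-rich class is clone 967B2.

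The same promoters were looked up in 4 Aid-/- iPS clones, which played no part in the choice. Of the 428 gained promoters, 257 (60.05%) had a peak in all 4 Aid-/- clones and 7 (1.64%) in none of them. Of the 22772 promoters without a peak in any of the 7 samples, 95.1% had none in the Aid-/- clones either. Gained promoters had a peak in 90.7% of cases in 979F1, 91.6% in 979F3, 93.0% in 981E1 and 64.95% in 981E4. Of the 195 lost promoters, 89 (45.6%) had no peak in any Aid-/- clone, while 30.3% had a peak in 979F1, 19.5% in 979F3, 2.56% in 981E1 and 34.9% in 981E4. The headers of 979F1, 979F3 and 981E4 have no run prefix and name MACS 1.4.1, as does that of 967B2. That of 981E1 has no prefix either and names 1.4.0rc2, and whether any of these shared a run is not stated. Among CpG-rich lost promoters 52 of 113 (46.0%) had no peak in any Aid-/- clone, which is close to the 45.6% of all lost promoters. In the ES lines, B6 ES had peaks at 93.9% of gained and 53.3% of lost promoters, RF8 at 38.8 and 10.8%, and MG1.19 at 9.58 and 2.05%. The ES lines had 101951, 56045 and 31650 autosomal peaks in that order. Of all 28090 promoters, 14.5% had a peak in B6 ES, 6.01% in RF8 and 2.72% in MG1.19. In the Aid-/- clones this share was 12.5% in 979F1, 12.2% in 979F3, 9.95% in 981E1 and 12.8% in 981E4.

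Sequence at the summits of the strongest peaks behind these calls is shown, to give the CpGs where the tags piled up. Promoters were ranked by the least significant of the peaks that carry the call, with the score that MACS gives (10 times the −log10 of p). Shown are 4 of the highest-ranked gained promoters, of which Sox2 is a gene of a delivered factor, and the 3 highest-ranked lost promoters. Each is given as 300 bases of the plus strand of NCBI build 37 centred on the median summit, with CpGs in capitals. A peak counts for a promoter when any part of it reaches the window, and the summit can lie outside. This was so for the 4 gained promoters and for Ankrd9, whose shown sequences lie wholly outside the promoter window, so that they do not show the CpG content of the promoter itself. The sequences at gained peaks come first. Spz1 at chr13:93344783-93345082 holds 18 CpGs, Sox2 at chr3:34549759-34550058 holds 28, Chrm2 at chr6:36473878-36474177 holds 10 and Lrp1 at chr10:127021568-127021867 holds 14. All 4 summits lie in exons of the named gene.
Spz1: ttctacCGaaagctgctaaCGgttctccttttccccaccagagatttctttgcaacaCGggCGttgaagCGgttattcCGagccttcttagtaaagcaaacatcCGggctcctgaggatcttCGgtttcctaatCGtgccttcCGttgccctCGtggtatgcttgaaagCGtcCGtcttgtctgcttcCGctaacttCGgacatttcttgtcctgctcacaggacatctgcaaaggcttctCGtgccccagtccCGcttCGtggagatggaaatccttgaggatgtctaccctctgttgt
Sox2: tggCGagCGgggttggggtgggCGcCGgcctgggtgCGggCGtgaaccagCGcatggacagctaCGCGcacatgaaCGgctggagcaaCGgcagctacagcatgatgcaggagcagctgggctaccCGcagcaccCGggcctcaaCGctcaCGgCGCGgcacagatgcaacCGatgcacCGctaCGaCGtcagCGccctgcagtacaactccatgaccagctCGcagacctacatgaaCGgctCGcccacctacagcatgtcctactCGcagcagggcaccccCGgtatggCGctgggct
Chrm2: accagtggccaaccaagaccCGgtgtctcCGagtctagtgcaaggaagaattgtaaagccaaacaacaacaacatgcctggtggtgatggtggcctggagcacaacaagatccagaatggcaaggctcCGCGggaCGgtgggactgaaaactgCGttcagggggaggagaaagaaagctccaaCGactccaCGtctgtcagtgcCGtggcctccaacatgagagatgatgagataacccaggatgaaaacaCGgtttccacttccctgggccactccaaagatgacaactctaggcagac
Lrp1: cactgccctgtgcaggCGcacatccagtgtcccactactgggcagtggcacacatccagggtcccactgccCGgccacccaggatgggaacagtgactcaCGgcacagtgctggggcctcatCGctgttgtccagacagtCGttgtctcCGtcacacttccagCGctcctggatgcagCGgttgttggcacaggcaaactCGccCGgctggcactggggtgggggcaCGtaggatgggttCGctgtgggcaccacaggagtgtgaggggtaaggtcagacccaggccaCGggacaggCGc
The sequences at lost peaks follow. Ankrd9 at chr12:112215201-112215500 holds 34 CpGs and Mbd3 at chr10:79858110-79858409 holds 17, both with the summit in an exon. The sequence at 4933428G20Rik, chr11:97361525-97361824, holds 41 CpGs, and its summit lies upstream of that gene and inside Arhgap23.
Ankrd9: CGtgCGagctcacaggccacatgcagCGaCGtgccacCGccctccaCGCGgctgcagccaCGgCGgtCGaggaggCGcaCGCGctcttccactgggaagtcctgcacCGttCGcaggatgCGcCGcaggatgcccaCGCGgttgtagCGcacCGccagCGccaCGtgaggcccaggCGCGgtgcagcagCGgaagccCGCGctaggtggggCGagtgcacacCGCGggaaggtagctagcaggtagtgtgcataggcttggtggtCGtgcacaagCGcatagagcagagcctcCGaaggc
Mbd3: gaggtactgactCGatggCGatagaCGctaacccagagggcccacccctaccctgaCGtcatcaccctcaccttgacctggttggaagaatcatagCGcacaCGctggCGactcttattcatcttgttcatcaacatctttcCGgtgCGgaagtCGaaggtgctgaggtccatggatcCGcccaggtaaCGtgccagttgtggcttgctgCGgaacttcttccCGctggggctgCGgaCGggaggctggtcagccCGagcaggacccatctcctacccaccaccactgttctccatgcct
4933428G20Rik: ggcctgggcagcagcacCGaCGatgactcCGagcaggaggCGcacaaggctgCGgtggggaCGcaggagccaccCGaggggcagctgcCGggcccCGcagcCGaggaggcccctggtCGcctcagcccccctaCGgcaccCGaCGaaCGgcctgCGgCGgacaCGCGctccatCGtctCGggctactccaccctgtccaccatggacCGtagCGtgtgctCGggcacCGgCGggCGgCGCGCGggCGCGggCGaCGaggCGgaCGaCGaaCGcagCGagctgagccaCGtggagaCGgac

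The 12 highest-ranked gained promoters were those of Myc, Spz1, Sox2, Chrm2, Loxhd1, Lrp1, Sohlh1, Mrgpra6, L3mbtl3, 2010107G12Rik, Chrm5 and Klc1. Values below are fold enrichment, the height of the peak over its local background, in the order 967B2, 967B4, 979B1 and 979B3, and no MEF culture had a peak at any of these windows. Chrm2 and Chrm5 encode muscarinic acetylcholine receptors. The peak at Chrm2 reached 35.4, 27.8, 33.9 and 27.3, and that at Chrm5 28.1, 20.9, 26.0 and 22.5. Spz1 and Sohlh1 encode helix-loop-helix transcription factors of germ cells, and their peaks reached 20.3, 15.3, 16.3 and 14.8 and, respectively, 33.1, 31.4, 30.6 and 23.02. Spz1 differed from the other 11 in that only 1 of the Aid-/- clones had a peak there, whereas the other 11 promoters had peaks in all 4. Lrp1 encodes an endocytic receptor of the low-density lipoprotein receptor family, and its peak reached 23.4, 23.6, 26.6 and 22.3. Mrgpra6, a Mas-related receptor gene, had 33.8 ± 3.27 (SD, n = 4), and L3mbtl3, which encodes a reader of methylated lysine, had 30.1 ± 1.65 (SD, n = 4). Loxhd1, a gene of the hair cells of the inner ear, had 30.02 ± 3.09 (SD, n = 4), 2010107G12Rik had 31.9 ± 2.87 (SD, n = 4) and Klc1, a kinesin light chain gene, had 17.03 ± 2.68 (SD, n = 4). The lowest value among the 12 genes was 10.7, at Myc. Relative to the transcript start of the window, the summit lay at -1201.5 bp at Lrp1 and -1055.5 bp at 2010107G12Rik, both in exons of the gene. At Loxhd1 and L3mbtl3 it lay at -140.5 and -389 bp, in introns. These windows are thus at starts inside the gene and not at its outermost start.

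**Figure D3:**
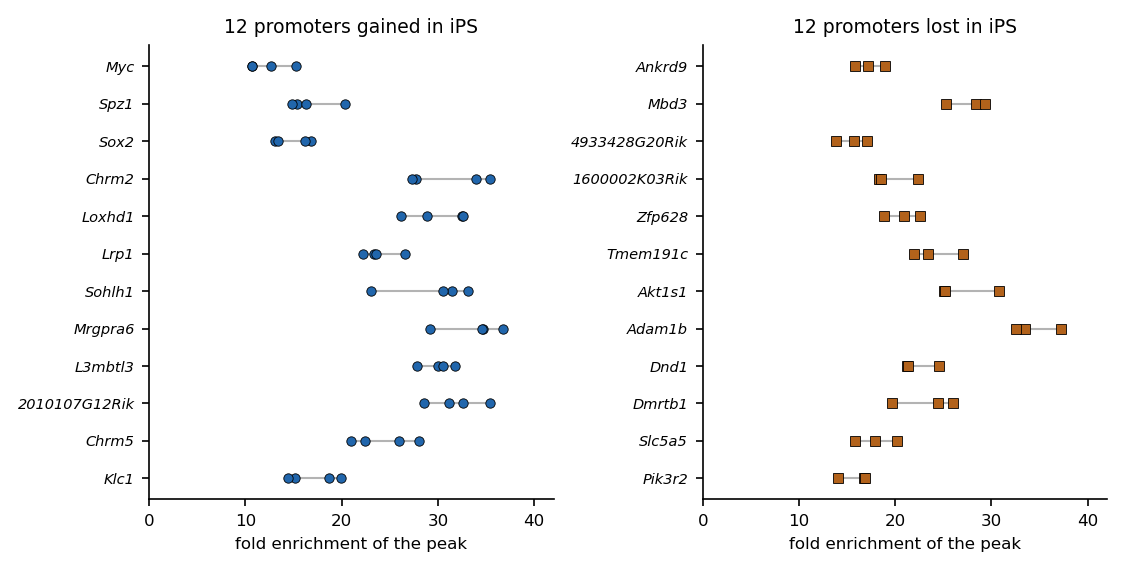
Fold enrichment of the peak in each carrying sample at the 12 gained (left, 4 Aid+/+ iPS clones) and 12 lost promoters (right, 3 Aid+/+ MEF cultures) with the highest least-significant peak score, in rank order from the top. No sample of the other cell type had a peak at these windows, and every value lies between 10.7 and 37.3.

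Myc and Sox2 stood at rank 1 and 3 among the gained promoters, and Pou5f1 was gained as well. These are genes of the delivered factors, so that reads from an integrated cDNA copy and from the gene itself cannot be told apart in the peak lists. At Sox2, which has no intron in its main transcript, the peak held 1151, 857, 250 and 93 tags, so that the clones differed far more in tags than in fold enrichment (13.1, 13.3, 16.8 and 16.2). At Pou5f1 a peak at the first exon held 87, 139, 104 and 60 tags. At Myc the gained peak covered an internal exon, with 486, 698, 362 and 169 tags, next to an alternative transcript start. A further peak over the last exon of Myc was present in all 7 samples. Its fold enrichments were 9.79, 9.52, 8.79 and 10.7 in the iPS clones and 33.5, 34.3 and 28.3 in MEFs. Its tags overlapped between the cell types, with 147, 369, 170 and 104 in the iPS clones and 164, 130 and 130 in MEFs. Klf4 had no peak at its promoter in any of the 7 samples, but each iPS clone had 2 peaks over its exons further in, and no MEF culture had any. All 25 peaks of the 4 iPS clones at these genes had their summit in an exon, where exons make up 47.6% of Pou5f1, 57.4% of Klf4, 54.5% of Myc and 100% of Sox2, at which no other outcome was possible. All 4 Aid-/- clones had peaks at the 4 genes, whereas the ES lines had none at Pou5f1 and Sox2, 1 peak at Klf4 and 2 at Myc. The peaks of MEFs at Myc and of the ES lines at Klf4 and Myc also had their summit in an exon.

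**Figure D4:**
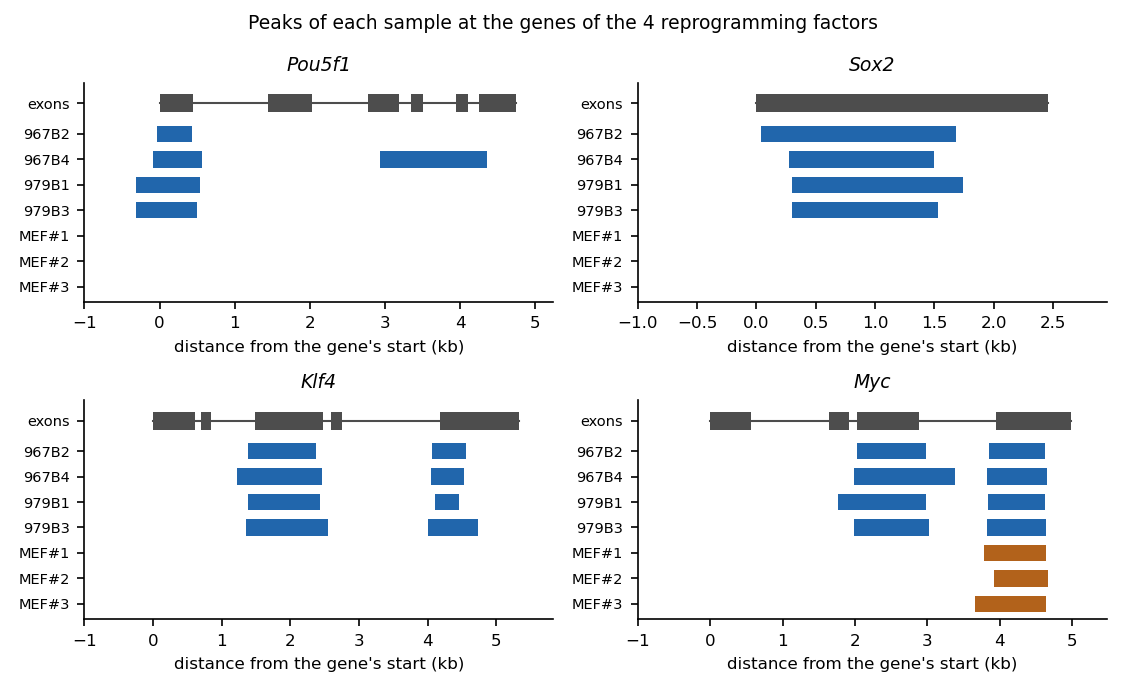
Peaks (coloured bars; blue, Aid+/+ iPS clones; brown, Aid+/+ MEF cultures) along the genes of the 4 delivered factors, by distance from the gene's start (kb), with exons in dark grey. The iPS peaks lie over exons, and MEF peaks are seen only over the last exon of Myc.

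Nanog, the reporter gene for reprogramming, had a promoter peak in MEF#1 and MEF#2 (fold enrichment 7.93 and 7.18) and in no iPS clone. With no peak in MEF#3 it was not counted as lost. Khdc3 (also Ecat1), a gene of oocytes and pluripotent cells, is annotated as 2410004A20Rik and had a peak of 6.53-fold in 967B2 alone. By bisulfite pyrosequencing the paper found the Nanog and Ecat1 promoters more methylated in Aid+/+ MEFs than in Aid+/+ iPS cells. It states that neither was among its MEF regions from MBD-seq. Of the pluripotency list, 2 of 44 promoters were gained (Sox2 and Pou5f1) and none was lost.

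The median of the least significant score was 145 at lost promoters, taken over 3 samples, and 99.3 at gained promoters, taken over 4. The 12 highest-ranked lost promoters were those of Ankrd9, Mbd3, 4933428G20Rik, 1600002K03Rik, Zfp628, Tmem191c, Akt1s1, Adam1b, Dnd1, Dmrtb1, Slc5a5 and Pik3r2, with values given in the order MEF#1, MEF#2 and MEF#3. Mbd3 encodes a subunit of the NuRD complex from the methyl-CpG-binding domain family, and its peak reached 28.3, 25.3 and 29.3. Adam1b, Dnd1 and Dmrtb1 are genes of germ cells. Their peaks reached 37.3, 33.5 and 32.5 at Adam1b, 21.2, 21.3 and 24.6 at Dnd1, and 24.4, 19.7 and 26.02 at Dmrtb1. Akt1s1, which encodes an inhibitor of mTORC1, had 30.8, 25.1 and 25.2, and Pik3r2, a regulatory subunit gene of PI3-kinase, had 16.8, 14.04 and 16.8. Ankrd9, an ankyrin repeat gene, carried the most tags (1026, 826 and 1082) at a fold enrichment of 17.3 ± 1.56 (SD, n = 3). Zfp628, a zinc finger gene, had 20.8 ± 1.88 (SD, n = 3), and Slc5a5, the sodium-iodide symporter gene, had 17.97 ± 2.16 (SD, n = 3). At Tmem191c, 1600002K03Rik and 4933428G20Rik the values were 24.1 ± 2.59, 19.8 ± 2.27 and 15.5 ± 1.63 (SD, n = 3 each). Of these 12, Pik3r2 had no peak in any Aid-/- clone, and the other 11 had peaks in 1 to 3 of them.

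Lists of genes were then read for gained and lost promoters, beside the 1.52 and 0.694% of all promoters. Among 57 Hox promoters none was gained and 6 were lost (10.5%), at Hoxa2, Hoxc4, Hoxc9, Hoxc10, Hoxd3 and Hoxd4. Peaks were present at 13 Hox promoters in 967B2, at 1, 2 and 1 in the other iPS clones, and at 14, 15 and 12 in MEFs, so that 967B2 was like the MEFs in this count. Hox genes set position along the body axis, and Hoxd3 and Hoxd4 share a single peak here, with fold enrichments of 10.1, 10.8 and 15.8 in MEF#1 to MEF#3. The peak at Hoxc10 reached 18.1, 16.1 and 12.5, and that at Hoxc9 19.5, 14.9 and 9.54. Among 73 promoters of lineage regulators 6 were lost (8.22%) and 2 gained. Lost were Tbx1, Cdx1, Sox7, Hand1, Pax8 and Gata2, regulators of heart, gut, endoderm, kidney and blood development. Tbx1 had 22.7, 21.2 and 20.7 and Cdx1 23.8, 22.98 and 22.2 in the 3 MEF cultures, and neither had a peak in any Aid-/- clone. Hand1 had none there either, whereas Sox7 had a peak in 3 Aid-/- clones and Pax8 and Gata2 in 2 each. Gata2 (8.64, 5.20 and 6.65) and Hand1 (5.38, 7.89 and 7.30) had low peaks. Gained were Elf5, a trophoblast regulator kept silent in cells of the embryo proper, with 16.3, 24.1, 12.8 and 10.8 in the iPS clones, and Hnf4a, a liver and endoderm regulator, with 8.26, 6.88, 8.91 and 8.96.

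Among 66 promoters of imprinted genes, which are methylated on the allele from a given parent, 5 were lost (7.58%) and none was gained. The lost ones lay in 4 genes, Igf2r, Igf2, Mkrn3 and Gnas. The peak at the promoter of Igf2r, a receptor that degrades the growth factor Igf2, reached 18.3, 18.1 and 19.03 in MEFs, and that of Igf2 itself 21.8, 21.1 and 14.4. A further 16 imprinted promoters (24.2%) had a peak in all 7 samples, against 2.71% of all promoters. Among 51 promoters of the list of genes used in germ cells, 3 were lost (Tex14, Sycp1 and Rnf17), none was gained and 14 had a peak in all 7 samples. Spz1 and Sohlh1 are not on this list. A gene can have several windows, and a region shared by all 7 samples can touch a window that not every peak reaches. Sycp1, Igf2 and Gnas are therefore among the lost promoters and also among the genes with shared regions below. Tex14, a gene of spermatogenesis, had 32.6, 27.03 and 28.4 and Sycp1, of the synaptonemal complex of meiosis, had 15.3, 15.4 and 14.5. Of the fibroblast list 2 of 66 promoters were gained and none was lost. Col1a1, the alpha chain gene of type I collagen, had 28.04, 11.8, 14.7 and 20.1 in the iPS clones, and Fap, fibroblast activation protein, had 29.4, 28.4, 31.5 and 30.3. No MEF culture had a peak at these 2 promoters.

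Other lists showed few calls. None of the 35 promoters of epithelial genes or the 25 of housekeeping genes was gained or lost. At epithelial promoters 967B2 stood apart, with peaks at 19 of the 35, against 2, 3 and 4 in the other iPS clones and 8, 10 and 7 in MEFs. Mbd3 was the lost promoter among 38 of the methylation machinery, and Eng, an endothelial receptor of the TGF-beta family with 22.5, 28.9 and 26.8, among 38 of blood and endothelial genes. Of 98 keratin promoters 4 were gained (Krt84, Krt26, Krt32 and Krt222), and of 43 beta-defensin promoters 1 (Defb19). Olfactory receptor genes had 4 gained and 1 lost of 1169 promoters, and vomeronasal receptor genes none of 337. Zfp genes had 4 gained and 4 lost of 515, solute carriers 9 gained and 3 lost of 472, and clustered protocadherins none of 40. For gene families the reads of near-identical copies may have been split or lost in mapping, which was not tested.

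Regions that held a peak in all 7 samples were compared by the number of tags. Of 21945 such autosomal regions, 4357 (19.9%) had more and 5204 (23.7%) fewer tags in iPS cells by edgeR's quasi-likelihood test (Benjamini-Hochberg adjusted p under 0.05). At promoters the balance was shifted toward fewer tags. Of 873 regions that touched a promoter, 93 were higher and 355 lower, with a median log2 change (iPS minus MEF) of -0.35, against 0.05 over all regions. The median change was -0.77 at CpG-rich promoters (1 higher and 82 lower of 133), -0.34 at intermediate ones (58 and 205 of 514) and -0.07 at CpG-poor ones (34 and 68 of 226). In 967B2 the median at CpG-rich promoters against the MEF mean was -0.58, and in the other clones -0.83, -0.90 and -0.91. The sign at promoters depended on the scale. With the total tags of each library as its size, 4980 of all regions were higher and 2053 lower. The median of all regions then moved to 0.50 and that of promoters to 0.12. These totals were taken before duplicates were filtered, whereas the tags in peaks were counted after filtering. On the fold enrichment of the peaks (limma), 5891 of all regions were higher and 1218 lower, the medians were 0.27 and 0.20, and 208 promoter regions were higher and 62 lower. The median at promoters stayed below that of all regions in each of these fits.

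Promoters of the germ cell list mostly had fewer tags in iPS cells. Of 14 shared regions at these promoters, 11 were lower in iPS cells and none was higher, with a median log2 change of -2.01. Of all shared promoter regions 40.7% were lower, of CpG-rich ones 61.7% and of intermediate ones 39.9%. Germ cell genes outside this list went both ways. Spz1 and Sohlh1 were gained and Catsper1 was higher in iPS cells, whereas Adam1b, Dnd1 and Dmrtb1 were lost and D1Pas1 was lower. The 11 were Asz1, Dazl, Figla, Fkbp6, Mov10l1, Piwil1, Rpl10l, Slc25a31, Sohlh2, Spo11 and Sycp1, named here after their values were seen. Dazl, an RNA-binding protein gene of germ cells, changed by -2.06 (SE 0.286, adjusted p = 9.3e-05), Mov10l1, of the piRNA pathway, by -2.36 (SE 0.230, adjusted p = 3.76e-06) and Spo11, which makes the breaks of meiosis, by -2.75 (SE 0.336, adjusted p = 3.01e-05). Tdrd9, Tex101 and Dpep3 had log2 changes of -0.35, 0.12 and -0.18 and did not pass. With total tags as the library size 8 of the 14 were lower (median -1.49), and on fold enrichment 1 (median -0.29).

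At imprinted promoters, 11 of 17 shared regions were lower and 1 was higher, with a median of -0.69. Of these 17 regions 11 were CpG-rich, and among all shared CpG-rich promoter regions 61.7% were lower with a median of -0.77, so that the imprinted regions were near the level of that class. Impact changed by -1.61 (SE 0.235, adjusted p = 0.000139), Grb10 by -1.24 (SE 0.274, adjusted p = 0.00329) and Zrsr1 by -1.23 (SE 0.225, adjusted p = 9.0e-04), while a region at Igf2 was higher by 0.69 (SE 0.261, adjusted p = 0.0455). No imprinted region was higher with DESeq2, with peak length as an offset, or in 6 of the 7 fits that left out 1 sample. Snrpn (0.25), Nnat (-0.11) and Mest (-0.45) did not pass. With total tags as the library size none of the 17 was lower by edgeR's adjusted p, with a median of -0.11, and on fold enrichment 2 were. The lower tags at imprinted promoters were thus seen relative to the other shared regions and not with the unfiltered total tags as library size. Filtered tags as the library size were not tested.

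By p-value, the 6 strongest falls at promoters were at 1700013N18Rik, Ldoc1l, Rpl10l, CT009512.1, Gm8841 and D1Pas1. Rpl10l and D1Pas1 are intronless copies of X-linked genes, used in spermatogenesis. The region at Rpl10l (chr12:67384349-67385766, NCBI build 37) held 71, 24, 64 and 44 tags in the iPS clones and 890, 736 and 885 in MEFs, a log2 change of -4.78 (SE 0.284, edgeR adjusted p = 6.59e-08). That at D1Pas1 (chr1:188790842-188793740) held 83, 46, 64 and 91 tags against 937, 725 and 739, a log2 change of -4.14 (SE 0.280, edgeR adjusted p = 1.48e-07). Every iPS clone lay far below every MEF culture at both. The fold enrichment of the same peaks overlapped between the cell types, at 9.46 to 21.1 against 17.7 to 19.4 for Rpl10l and 9.34 to 15.9 against 14.1 to 15.02 for D1Pas1 (limma adjusted p = 0.334 and 0.423). At 1700013N18Rik both measures fell, with 27, 17, 16 and 13 tags against 206, 213 and 185, and a fold enrichment of 11.04 to 16.3 against 30.5 to 38.1 (limma adjusted p = 0.00069). Reads at copied genes may map to more than a single place, which was not tested. Ldoc1l changed by -3.29, CT009512.1 by -4.69 and Gm8841 by -3.65 on the log2 scale.

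Rises at promoters were smaller. The 6 strongest were at Scarb1, Catsper1, Pgbd5, Gm10874, Cldn8 and Dlgap3, with log2 changes of 0.98, 1.46, 0.99, 1.52, 1.03 and 0.95. Catsper1, a calcium channel gene of sperm, held 128, 168, 177 and 153 tags in the iPS clones and 49, 42 and 21 in MEFs (SE 0.274, edgeR adjusted p = 0.00107), and its fold enrichment rose too, from between 8.64 and 21.1 in MEFs to between 29.7 and 37.4 in iPS cells (limma adjusted p = 0.00718). Cldn8, a tight junction gene, held 189, 153, 184 and 130 tags against 74, 45 and 34 (SE 0.206, edgeR adjusted p = 0.00165). On fold enrichment only Catsper1 and Cldn8 of the 6 passed (limma adjusted p = 0.416 at Scarb1, 0.289 at Pgbd5, 0.0551 at Gm10874 and 0.0811 at Dlgap3). With peak length as an offset Dlgap3 did not pass either.

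**Figure D5:**
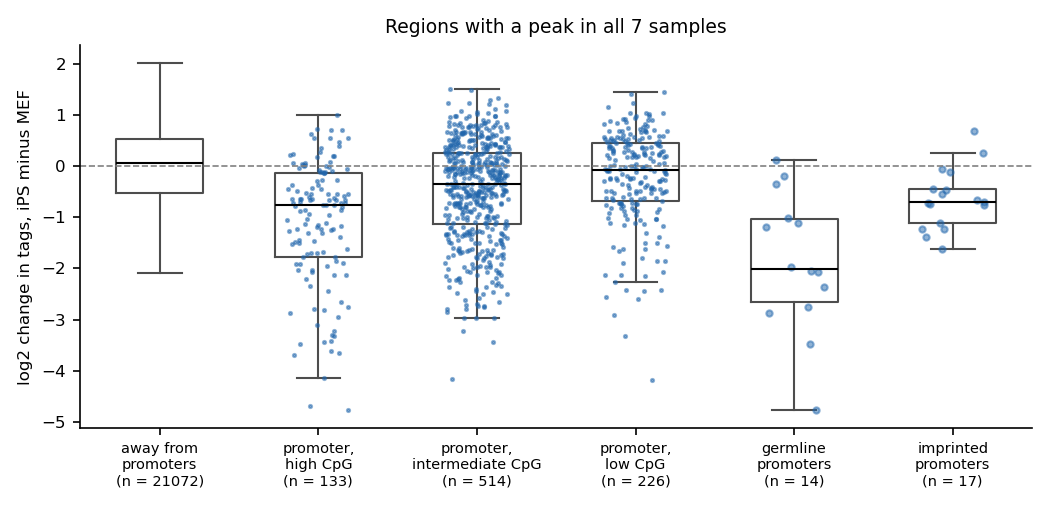
Log2 change in tags (Aid+/+ iPS minus Aid+/+ MEF, edgeR with TMM) at regions that carried a peak in each of the 7 samples. Boxes give the median and quartiles, whiskers reach to 1.5 times the box, and points are regions. Medians run from 0.06 away from promoters to -0.77 at CpG-rich promoters and -2.01 at promoters of germ cell genes.

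Over the whole of the autosomes, 17371 of 61635 stretches common to the 4 iPS clones (28.2%) had no MEF peak, and 1895 of 29755 stretches common to the 3 MEF cultures (6.37%) had no iPS peak. These are the DMRs of the study's definition. The 2 kinds differed in place and composition. At promoters were 7.81% of the MEF DMRs and 2.11% of the iPS DMRs, and in introns 24.01 and 34.05%. The median MEF DMR was 687 bp long with 58.1% GC and 4.39 CpGs per 100 bp, and the median iPS DMR was 386 bp long with 50.0% GC and 3.00 CpGs per 100 bp. Regions shared by all samples lay between, with 51.5% GC and 3.85 CpGs per 100 bp. The iPS DMRs were also close to the detection limit, with a median least score of 97.2 against 418 at the shared stretches and 236 at the MEF DMRs. With 33500 peaks per sample there were 2564 iPS DMRs and 5457 MEF DMRs, so that their order changed. On every autosome the iPS DMRs were the more frequent, with MEF DMRs making up 7.10% (chromosome 13) to 12.3% (chromosome 7) of all DMRs.

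Of 21418 genes, 5196 held an iPS DMR in their span or the 1000 bp before it, 990 held a MEF DMR, and 440 held both. The genes with the most iPS DMRs were long. Camta1, a transcription activator gene with a span of 802 kb, held 31 iPS DMRs and 0 MEF DMRs. Cdh13, an atypical cadherin gene (1041 kb), held 21 and 0, Smyd3, a lysine methyltransferase gene (566 kb), 20 and 0, and Wwox, an oxidoreductase gene at a fragile site (913 kb), 19 and 1. The annotated spans of Gm20388 (4435 kb, 91 iPS and 8 MEF DMRs) and Fgfr2 (3009 kb, 32 and 3) take in several other genes. The gene span with the most MEF DMRs was that of Gm20388 as well, followed by Hoxa3, Nfix and Tiam1. Hoxa3 (chr6:52113358-52163338), annotated as 2 overlapping genes of 49.98 and 44.8 kb, held 6 and 5 MEF DMRs and no iPS DMR or shared stretch. Nfix, a transcription factor of the nuclear factor I family (100.5 kb), held 4 MEF DMRs and 2 iPS DMRs. Tiam1, an exchange factor for Rac (357 kb), held 4 MEF DMRs but 11 iPS DMRs, and Kiss1r, the kisspeptin receptor gene (5.30 kb), held 3 and 0. In all, 18 genes held at least 3 MEF DMRs and 859 at least 3 iPS DMRs.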

How the data were processed

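MBD-seq, single reads of captured and sonicated DNA, was analysed in 7 of the 14 samples, with 4 Aid-/- iPS clones and 3 ES lines used for look-up only. The deposited lists are those of MACS, with 1 list per sample, no control library and a p cutoff of 1e-05. Per the submitters' processing notes, BWA 0.5.9rc1, CASAVA 1.8.1 and MACS 1.4.1 were used on NCBI build 37, and the file headers name 1.4.0rc2 for some samples. At most 2 tags per position were kept. Per the file headers, each deposited peak has a count of tags, a score (10 times the −log10 p) and a fold enrichment over local background (a ratio). The deposited counts were not normalized. Fragments without enough CpGs and methylation give no peak, and depth and enrichment set how many peaks pass the cutoff.

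From these lists, peaks of the 19 autosomes were overlapped (at least 1 bp) with promoters of protein-coding transcripts (GENCODE, same build), and peak summits were assigned to features. Stretches covered by every sample of a group and none of the other were called DMRs. Shares were compared by two-sided exact permutation tests. Tag counts of regions that carried a peak in each of the 7 samples were summed and compared with edgeR 4.0.16 in R 4.3.3 (quasi-likelihood, TMM, Benjamini-Hochberg), with limma 3.58.1 and DESeq2 1.42.0 as alternatives. Since these regions were chosen for having a peak in every sample, they leave out complete gains and losses. Peak positions are known without tags outside peaks, so absence of a peak is no measure of methylation. The procedures were tested on simulated data. Genes were named by rank of score or p, 12 promoters and 6 regions or genes per direction and up to 6 per gene list, and no sequence of chromosome 18 is shown. The sequence of 1 further gained promoter is not reported here. The members and gene lists were chosen with earlier results of these data known. The paper states that clone independence was checked by the integration pattern of retroviral Klf4 and that MEFs were made from individual embryos. The peak lists do not test this, and p-values measure the spread between these samples.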

Additional observations from a re-analysis of the deposited data

Results flagged for a closer look

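Of 66 quantities tested within the 4 Aid+/+ iPS clones, 9 had a sample far from the other 3 by Dixon's criterion at 95%, and chance flags about 1 in 20 groups. Clone 967B2 stood apart in 5 of them. It had 28.4 M tags before filtering (35.7 to 36.9 in the others) and 3.50% of peaks at promoters (2.33 to 2.38). It also had 29.4% of promoter peaks at CpG-rich promoters (8.12 to 9.71) and 991 CpG-rich promoters with a peak (263 to 386). Its fold enrichment at the promoter of Slc22a15, a solute carrier gene, was 8.49 (19.6 to 21.8). Clone 967B4 was low at Olfr599 (11.8 against 20.1 to 21.7), at Zfp790 (10.7 against 12.6 to 12.8) and in normalized tags at the region of Rpl10l (5.58 against 12.9 to 13.9, in counts per M). Clone 979B3 had a median fold enrichment of 14.65 (15.9 to 16.0). The cause was not tested.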

How the results depend on the processing

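With 33500 peaks in every sample, 88 promoters were gained, 397 lost and 428 shared by all 7 samples, with 5 CpG-rich gained, 43 CpG-poor gained and 48 CpG-poor lost, and 2564 iPS and 5457 MEF DMRs. The shares of peaks then differed by -1.10 percentage points at promoters, 1.04 in introns, 1.80 between genes (the opposite sign) and -16.8 at CpG-rich among promoter peaks. With p of at most 1e-10 in the carrying samples, 213 were gained (18 CpG-rich, 105 CpG-poor) and 128 lost (74 CpG-rich), with 8266 iPS DMRs. With that limit in every sample, 24 CpG-poor promoters were lost, and shares differed by 5.62 in introns and -2.79 between genes. The narrow promoter gave 234 gained, 496 shared, 4 CpG-rich gained, 110 CpG-poor gained and 4 CpG-poor lost, and the wide one 801, 1467, 168, 412 and 28. The next alternatives, with 967B2 alone on the iPS side or MEF#1 alone on the MEF side, were added after seeing the data. With 967B2 alone, 1367 were gained (624 CpG-rich, 367 CpG-poor), and 25 CpG-poor were lost. With MEF#1 alone, 698 were gained (50 CpG-rich, 352 CpG-poor) and 360 lost (182 CpG-rich, 57 CpG-poor), with 4107 MEF DMRs. Of the 24 promoters named by rank, 11 kept their call with the narrow promoter, 12 with the wide one and 21 with the 100 bp overlap. Leaving out samples or a stricter p cannot remove these calls. Leaving out 1 sample gave 442 to 707 gained (31 to 50 CpG-rich, 236 to 374 CpG-poor), 196 to 336 lost (113 to 189 CpG-rich, 15 to 29 CpG-poor), 17750 to 29116 iPS DMRs and 1954 to 3275 MEF DMRs, 2650 to 5449 shared regions higher, and 7 to 12 imprinted regions lower. The highest of these promoter and DMR counts came without 967B2 (707, 336, 29116 and 3275), and 659 were gained without MEF#2. Higher shared regions numbered 2729, 2772 and 2650 without 979B1, MEF#1 and MEF#3, and 7 imprinted regions were lower without MEF#3. Higher regions numbered 2004 with peak length as an offset. Lower regions numbered 2053 with total tags and 1218 on fold enrichment, those at promoters 162 and 62, those at imprinted promoters 0 and 2, and those at germline promoters 1 on fold enrichment. The cause of these shifts was not tested. No paired analysis was possible because the replicate numbers were given in accession order and tie no clone to a MEF culture.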
